A study of Mus musculus with 6 samples.

Results

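Skor2 and its 5 relatives Skor1, Ski, Skil, Dach1 and Dach2 were examined in RNA-seq libraries of the sensory epithelia of the newborn mouse inner ear. The 6 genes were found by their symbols among the 39179 genes listed in the count files, and all 6 passed the filter of at least 1 CPM (counts scaled to a common library size) in 3 or more libraries. Skor2 had been picked for its difference between the tissues, so its values are a description with no test. The 5 paralogs were taken by family, with earlier results of these data known. The samples were 3 libraries of the cochlear epithelium, the organ of hearing, and 3 of the vestibular epithelium, the organ of balance, from untreated wild-type C57Bl/6J mice at P0, with male and female animals pooled in both groups. Per the methods, both epithelia were taken from the same 20 ears of 10 mice, so the tissues shared animals, and separate pools for the 3 libraries of a tissue are not described in the sources used here, so p-values measure the spread between libraries, which may be technical. The counts on genes ranged from 24464483 to 33664793 per library, so 1 CPM stood for 24.5 to 33.7 counts.

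The proteins of this family share a Ski/Sno/Dac domain and act mostly as transcriptional corepressors: they hold back genes by bringing NCoR, SIN3 and histone deacetylases to factors bound on DNA. Ski and SnoN, the product of Skil, bind the SMAD proteins that carry TGF-beta and BMP signals and limit their output. Dach1 and Dach2, the mouse Dachshund genes, work with Eya proteins and their homeobox partners in developing sense organs, while Skor1 is known as a partner of Lbx1 in the dorsal spinal cord and Skor2 is best known from developing Purkinje cells of the cerebellum.

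In the vestibule both Skor genes were present at a clear level, in the cochlea Skor1 was low and Skor2 was close to 0, and Ski and Skil, the broadly expressed members, overlapped between the tissues. Dach2 was higher in the vestibule and Dach1 was higher in the cochlea. Of the 5 paralogs, 2 were called higher in the vestibule and 1 higher in the cochlea by edgeR's quasi-likelihood test at a Benjamini-Hochberg FDR of 0.05, beside 15.8% and 11.6% of the 14723 genes tested. The other two were not called.

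**Figure D1:**
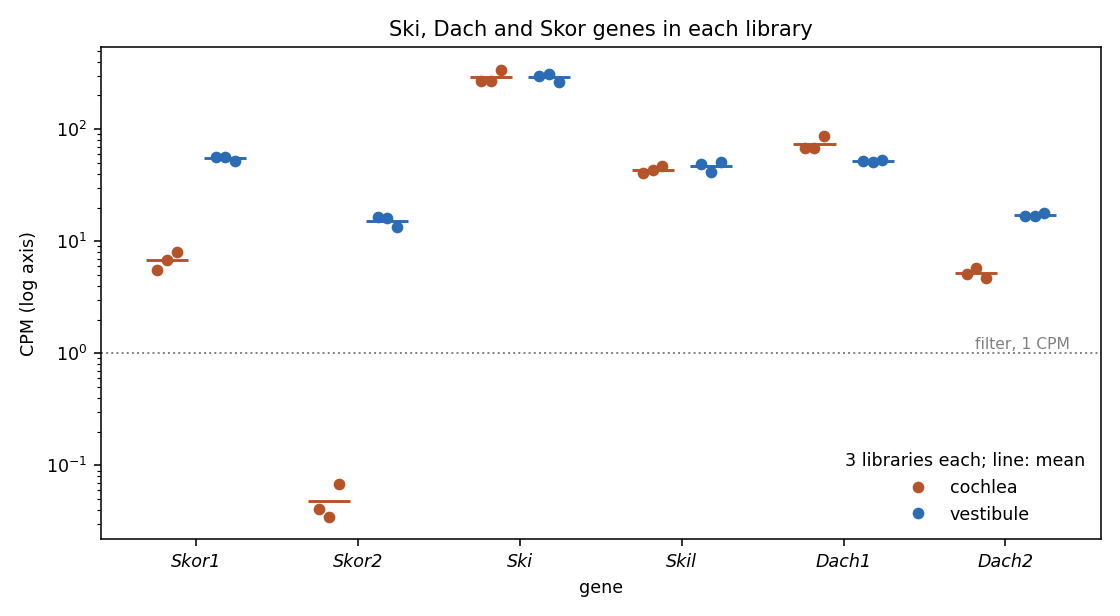
CPM on a log axis for each of the 6 genes in the 3 cochlear and 3 vestibular libraries, with 1 point per library, a line at the mean of each group and a dotted line at the filter of 1 CPM. Skor1, Skor2 and Dach2 lie higher in every vestibular library, Dach1 lies higher in every cochlear library, and the points of Ski and Skil overlap.

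Skor2 (ENSMUSG00000091519) lies on the plus strand of chromosome 18 at 76856405 to 76900342 in GRCm38, with 1 transcript in the GENCODE vM21 annotation and 3141 bases in its 9 exon blocks. The cochlear libraries held 1, 1 and 2 counts of Skor2, and the vestibular libraries held 558, 413 and 338. In CPM these were 0.0409, 0.0347 and 0.0684 against 16.6, 16.1 and 13.3, so that the lowest vestibular library stood far above the highest cochlear one. Over the libraries the mean was 0.0480 ± 0.0180 CPM in the cochlea and 15.3 ± 1.78 CPM in the vestibule (SD, n = 3 each). The exact Poisson interval at 95% reached up to 0.248 CPM in cochlear replicate 3, the highest upper bound of the cochlear libraries, and down to 11.9 CPM in vestibular replicate 3, the lowest bound of the vestibular ones. These intervals cover counting error only.

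The summed counts of Skor2, 1309 in the vestibule and 4 in the cochlea, gave a ratio of 291 after TMM scaling, with a counting interval of 114 to 1071. With library sizes alone the ratio was 318, with an interval of 124 to 1170. The width of both intervals comes from the 4 cochlear counts. Only 2 of the 14723 genes tested had a larger ratio of summed counts, Pyy, a gut peptide hormone with 1 cochlear count in all, and Otop1, a proton channel needed for otoconia, with counts of 1, 0 and 1 against 704, 729 and 513. In this bulk material, fewer cells of a type and less RNA per cell cannot be told apart.

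A count of at most 3 in every cochlear library together with 1 CPM or more in every vestibular library was found for 15 genes, and of the other 14 only Otop1 had a higher mean in the vestibule, at 23.1 ± 4.56 CPM (SD, n = 3). After Otop1 and Skor2 came Cib3, a calcium-binding protein of the hair cell transduction complex, with 2, 2 and 3 counts against 379, 296 and 348. Below these were Pyy, 1700012P22Rik and 10 genes with means under 3 CPM, among them Wnt10b and Wt1. In the other direction, with the tissues exchanged, 6 genes met the same condition. This list was chosen on the same measure as Skor2 and is a description.

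**Figure D2:**
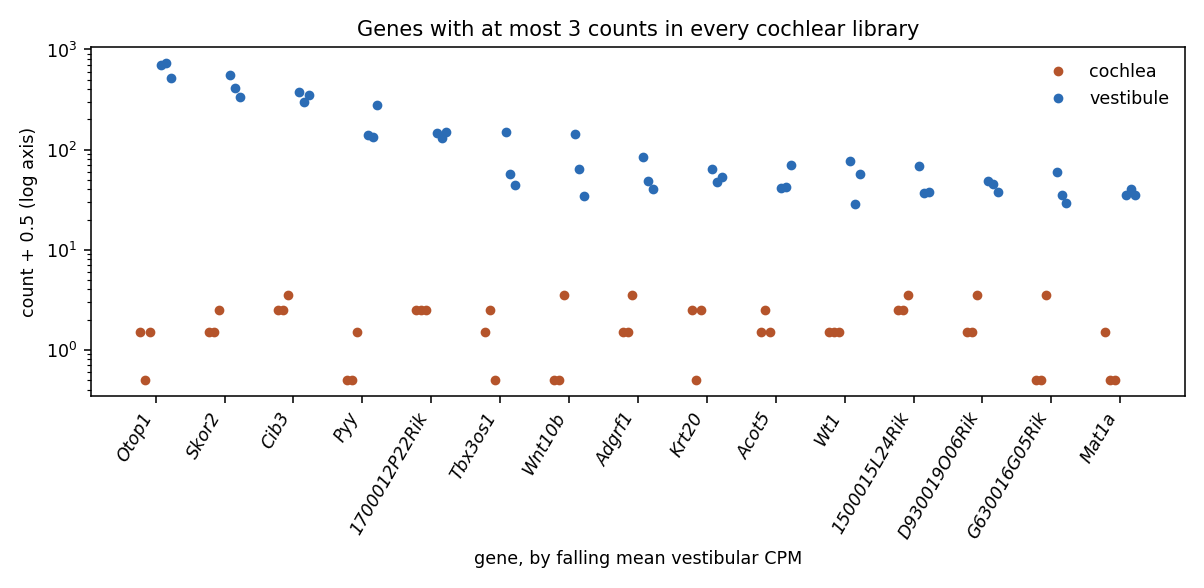
Counts plus 0.5 on a log axis, 1 point per library, for the 15 genes with at most 3 counts in each cochlear library and at least 1 CPM in each vestibular library, ordered by falling mean vestibular CPM. Skor2 stands next to Otop1 and before Cib3, and its vestibular counts run from 338 to 558.

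The 5 genes whose centred log2 CPM over the 6 libraries lay nearest to that of Skor2 were Cib3, Grem1, Sox1, Pyy and Prss56, at root mean square distances of 0.54, 0.57, 0.59, 0.62 and 0.64 on the log2 scale. Grem1, a secreted BMP antagonist, had 9, 8 and 37 cochlear counts and 4020, 2209 and 1423 vestibular counts. Sox1, an HMG box transcription factor, had 2, 2 and 13 counts against 1069, 812 and 973. The choice of these genes rests on the size of the difference between the tissues: when Pearson r ranked the genes, 0 of the 5 were shared and Aldh1a1 and Meis2 came first, and 1138 genes had an r above 0.95 over the 6 libraries. With a prior count of 2 in place of 0.5, 3 of the 5 were shared.

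Skor1 (ENSMUSG00000022245), the nearest relative of Skor2, lies on the minus strand of chromosome 9 at 63138170 to 63148961 in GRCm38, with 3 transcripts and 3796 bases of exon. In the cochlea 135, 198 and 234 counts fell on Skor1, and 1885, 1462 and 1323 in the vestibule. These are 5.52, 6.87 and 8.01 CPM against 56.0, 56.9 and 51.9 CPM, with no overlap and a gap far wider than the range within either tissue. The means were 6.80 ± 1.25 and 55.0 ± 2.66 CPM (SD, n = 3 each). Skor1 rose in the vestibule by 2.89 on the log2 scale (SE 0.17, interval 2.51 to 3.27), a 7.42-fold difference, with an adjusted p of 8.32e-06 in edgeR's quasi-likelihood test. Of all genes tested, 252, or 1.71%, had a larger change in the same direction.

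Both Skor genes were thus higher in all vestibular libraries, and they differed in what was left in the cochlea: Skor1 stayed above 5 CPM in every cochlear library, while Skor2 had no more than 2 counts. Measured per length as RPKM, Skor2 made up 0.761% to 1.15% of the summed Skor1 and Skor2 level in the cochlear libraries and 23.6% to 26.4% in the vestibular libraries. Skor1 was therefore the more abundant of both genes per length in every library. The sum of both was 1.47 to 2.14 RPKM in the cochlea and 17.9 to 20.2 RPKM in the vestibule.

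Each Skor gene lies in a stretch of chromosome that also holds a Pias gene and a pair of Smad genes, and these neighbours were named after their values were seen. Skor1 has Pias1, which codes for a SUMO ligase, at 150 kb, Smad3 at 498 kb and Smad6 at 804 kb, and Skor2 has Pias2 at 165 kb, Smad2 at 545 kb and Smad7 at 1460 kb. Smad6, Smad2 and Smad7 were called higher in the cochlea by edgeR and the other three were not called. Pias1 and Pias2 both had log2 fold changes of -0.18, with edgeR adjusted p of 0.31 and 0.374. The nearest gene to Skor2 that passed the filter, Ier3ip1 at 29.7 kb, had a log2 fold change of -0.14 with an edgeR adjusted p of 0.591. Katnal2 at 76.8 kb from Skor2 and Zbtb7c at 708 kb were called higher in the vestibule, at 1.23 and 1.70 with edgeR adjusted p of 0.0217 and 0.000395. Map2k5, at 14.8 kb from Skor1, had -0.05 with 0.821. Of the 36 genes that are the nearest 3 on each side of the 6 members and passed the filter, 7 were called higher in the vestibule and 5 higher in the cochlea, or 19.4% and 13.9%, close to the 15.8% and 11.6% of all genes tested.

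Ski (ENSMUSG00000029050; chromosome 4, 155154075 to 155222592, minus strand, 5562 bases of exon) was the most abundant member per length in both tissues. The cochlear libraries held 6576, 7697 and 9909 counts of Ski and the vestibular libraries 10035, 7981 and 6713, which is 269, 267 and 339 CPM against 298, 311 and 263 CPM. The libraries overlapped, and the highest was cochlear and the lowest vestibular. The log2 fold change was -0.12 (SE 0.13), with an interval of -0.43 to 0.18 and an edgeR adjusted p of 0.537, so a difference of up to 0.43 on the log2 scale lies within the interval.

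Skil (ENSMUSG00000027660; chromosome 3, 31095058 to 31122577, plus strand, 9694 bases of exon), which codes for SnoN, is itself a known target of TGF-beta signals. It had 989, 1254 and 1361 counts in the cochlea and 1635, 1059 and 1295 counts in the vestibule, or 40.4, 43.5 and 46.6 CPM against 48.6, 41.2 and 50.8 CPM. The log2 fold change of Skil was -0.01 (SE 0.14), with an interval of -0.33 to 0.31 and an edgeR adjusted p of 0.969, and its sign turned under library sizes alone, at 0.11. Ski was 10.7 to 12.7 times as high as Skil per length in the cochlear libraries and 9.03 to 13.1 times in the vestibular ones, so the ratio overlapped between the tissues.

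**Figure D3:**
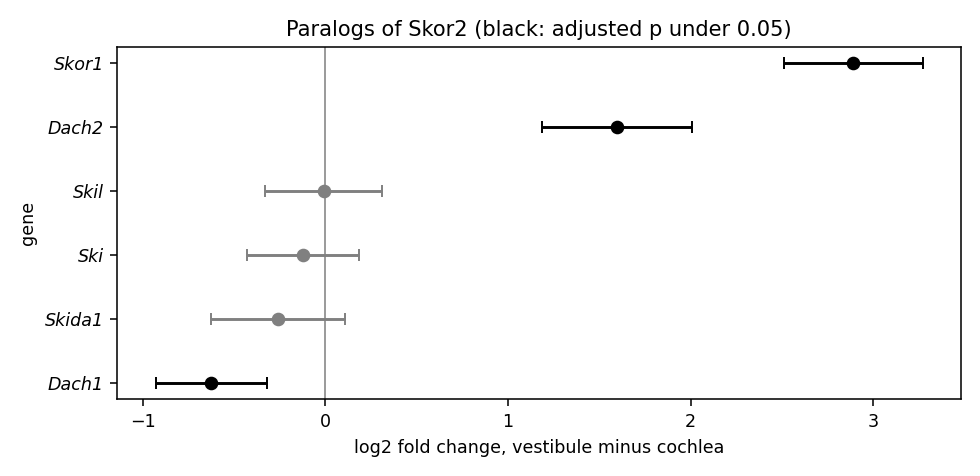
Log2 fold change, vestibule minus cochlea, with its 95% interval from edgeR's quasi-likelihood fit on 3 libraries per tissue, for the 5 paralogs of Skor2 and for Skida1, with genes at an adjusted p under 0.05 in black. Skor1 at 2.89 and Dach2 at 1.60 lie to the right of 0, Dach1 at -0.62 lies to the left, and the intervals of Skil, Ski and Skida1 include 0.

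Dach2 (ENSMUSG00000025592; chromosome X, 113297510 to 113836386, plus strand, 9868 bases of exon) had 124, 168 and 137 counts in the cochlea and 564, 428 and 455 counts in the vestibule. These are 5.07, 5.83 and 4.69 CPM against 16.8, 16.7 and 17.9 CPM, with the vestibular libraries close to each other and all above the cochlear ones. Dach2 rose in the vestibule by 1.60 on the log2 scale (SE 0.18, interval 1.19 to 2.01), 3.02-fold, with an edgeR adjusted p of 0.000283. A larger change in that direction was seen for 853 genes, or 5.79% of those tested.

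Dach1 (ENSMUSG00000055639; chromosome 14, 97786853 to 98169765, minus strand, 7317 bases of exon) moved the other way. It had 1672, 1960 and 2519 counts in the cochlea and 1757, 1307 and 1363 counts in the vestibule, or 68.3, 68.0 and 86.2 CPM against 52.2, 50.9 and 53.5 CPM. No vestibular library reached the lowest cochlear one, and cochlear replicate 3 was the highest of all. The log2 fold change of Dach1 was -0.62 (SE 0.13, interval -0.93 to -0.32), a level 1.54-fold higher in the cochlea, with an edgeR adjusted p of 0.00854. Without vestibular replicate 2 it was -0.58 with an adjusted p of 0.0662, so the call depended on that library. A larger change towards the cochlea was seen for 1514 genes, or 10.3%.

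The groups did not overlap for 2 of the 5 paralogs with the vestibule higher and for 1 with the cochlea higher, where 27.5% and 14.3% of all genes tested did not overlap in these directions, and 41.8% in either. Dach1 was the more abundant of both Dach genes per length in every library, but Dach2 made up 3.88% to 5.98% of their sum in the cochlea and 19.2% to 19.8% in the vestibule. In the annotation 3 small genes overlap the span of the Dach genes, and none had more than 1 count in a library. Skida1, a further gene with a Ski/Dach domain that was added for comparison, had 21.6 ± 1.72 CPM in the cochlea and 19.7 ± 3.62 CPM in the vestibule (SD, n = 3 each) and a log2 fold change of -0.26 with an edgeR adjusted p of 0.27.

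The 250 bases before the start of the 3 called paralogs are shown to let their promoters be compared with the direction of their change. They are RefSeq windows on GRCm38.p6, written 5′ to 3′ on the strand of the gene, with the SMAD box CAGAC, or GTCTG on the other strand, in capitals; Skor1 spans chr9:63148962-63149211, Dach2 chrX:113297260-113297509 and Dach1 chr14:98169766-98170015.
Skor1: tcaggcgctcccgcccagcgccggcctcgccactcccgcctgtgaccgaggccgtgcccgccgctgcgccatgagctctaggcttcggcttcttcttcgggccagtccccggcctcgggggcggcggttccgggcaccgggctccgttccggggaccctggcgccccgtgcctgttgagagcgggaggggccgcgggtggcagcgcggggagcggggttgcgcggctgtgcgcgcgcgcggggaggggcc
Dach2: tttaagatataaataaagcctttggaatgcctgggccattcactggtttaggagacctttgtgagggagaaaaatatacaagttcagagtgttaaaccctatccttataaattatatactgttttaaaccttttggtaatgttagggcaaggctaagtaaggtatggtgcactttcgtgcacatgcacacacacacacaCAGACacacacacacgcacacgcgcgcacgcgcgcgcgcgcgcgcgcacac
Dach1: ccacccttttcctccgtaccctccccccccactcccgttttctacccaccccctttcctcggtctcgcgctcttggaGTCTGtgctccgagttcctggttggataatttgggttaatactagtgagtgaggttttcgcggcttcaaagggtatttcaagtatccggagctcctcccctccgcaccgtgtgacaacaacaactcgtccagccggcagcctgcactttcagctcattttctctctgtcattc
Windows for 4 of the 6 members were in the RefSeq table. The letters occurred 0 times before Skor1, once before Dach2 and once before Dach1, at 51 and 173 bases before the start, and at least 1 match was found in 42.2% of the 32851 promoter windows of this length. A match is a description of the letters and not a site. The windows of the 3 genes differed in their base composition: that of Skor1 was 78.8% G and C with 36 CpG, higher in G and C than 98.3% of those 32851 windows, that of Dach1 was 54.8% with 13 CpG, and that of Dach2 was 45.6% with 14 CpG, beside medians of 52.4% and 6. The match before Dach2 lies inside a run of alternating C and A.

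Levels of different genes were compared per length, as RPKM from the deposited matrix. In the cochlea the order from high to low was Ski at 52.5 ± 7.40 RPKM, Dach1 at 10.2 ± 1.42, Skil at 4.50 ± 0.318, Skor1 at 1.80 ± 0.329, Dach2 at 0.528 ± 0.0591 and Skor2 at 0.0182 ± 0.00573 RPKM (SD, n = 3), and no neighbours in that order overlapped. In the vestibule it was Ski at 52.4 ± 4.42 RPKM, Skor1 at 14.5 ± 0.704, Dach1 at 7.15 ± 0.178, Skor2 at 4.89 ± 0.570, Skil at 4.85 ± 0.518 and Dach2 at 1.74 ± 0.0673 RPKM (SD, n = 3), where only Skor2 and Skil overlapped. Skor1 thus moved from the fourth to the second place and Skor2 from the sixth to the fourth. The matrix holds a small prior that lifts very low counts, so the cochlear level of Skor2 in it is slightly above the one from its counts and exon length, 0.0153 RPKM.

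Ski made up 74.8% to 76.1% of the summed RPKM of the 6 genes in the cochlear libraries and 59.5% to 62.9% in the vestibular libraries. Skor1 made up 2.28% to 2.82% and 16.9% to 17.2%, and Skor2 0.0216% to 0.0307% and 5.31% to 6.04%. The sum itself ran from 63.9 to 80.3 RPKM in the cochlea and from 79.8 to 89.1 in the vestibule, so that cochlear replicate 3 reached into the vestibular range. These shares sum to the whole in each library, so a rise of some genes lowers the shares of the others.

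**Figure D4:**
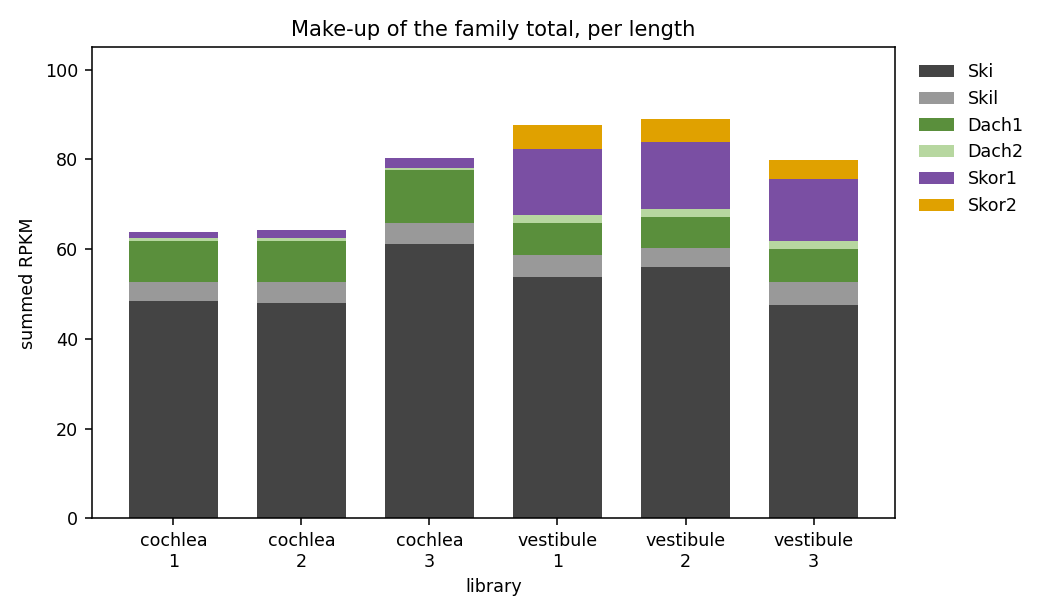
Summed RPKM of the 6 genes in each of the 6 libraries, stacked by gene, with the axis from 0. The purple and yellow parts of Skor1 and Skor2 are thin in the 3 cochlear libraries and together 17.9 to 20.2 RPKM in the vestibular ones, while the dark part of Ski is of similar height in both tissues.

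The genes that work with the family were read from 6 lists and, with Skida1, came to 56 genes. Of these, 53 were tested and 26 were called by edgeR, 9 higher in the vestibule and 17 higher in the cochlea. That is 49.1% of those tested, beside 27.4% of all genes tested. The calls of 16 of the 26 were the same whichever library was left out, and without vestibular replicate 2 only 17 genes were called. Under library sizes alone 21 were called, 9 higher in the vestibule and 12 in the cochlea: Smad2, Tbl1xr1, Nedd4l, Six4 and Eya4 lost their calls towards the cochlea, and no called gene changed its sign. The lists were drawn up with earlier results of these data known.

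Of the 8 SMAD proteins, which include those that Ski and SnoN bind and the inhibitory Smad6 and Smad7, 5 were called higher in the cochlea by edgeR and 0 in the vestibule (also 0 by DESeq2, by limma-voom and at an unadjusted edgeR p under 0.05), and the median log2 fold change was -0.53, beside 0.0048 for all genes tested. EdgeR called 11.6% of all genes tested higher in the cochlea and 15.8% higher in the vestibule. Smad9, which carries BMP signals, fell in the vestibule from 13.3 ± 5.08 to 4.29 ± 0.807 CPM (SD, n = 3 each), a log2 fold change of -1.77. Smad6, an inhibitor of BMP signals, had 36.1, 43.7 and 39.2 CPM in the cochlea and 19.0, 18.8 and 18.8 CPM in the vestibule, a log2 fold change of -1.19, and Smad7, which inhibits TGF-beta signals, had -0.90. Smad5, with the highest mean CPM of the list over the 6 libraries, had -0.57 and lost its call without vestibular replicate 2, where 3 of the 8 remained called. Smad2, which with Smad3 carries TGF-beta signals, had -0.48 with an edgeR adjusted p of 0.0316 and was called in only 1 of the 6 fits that left out a library.

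The ligands and receptors of the TGF-beta pathway moved in both directions: of 8, 5 were called higher in the vestibule by edgeR and 2 in the cochlea, with a median log2 fold change of 0.55. Among all genes tested 15.8% and 11.6% were called in these directions. Tgfb2, a ligand, had 739, 738 and 902 CPM in the cochlea and 201, 236 and 245 CPM in the vestibule, a log2 fold change of -1.91. Tgfbr1, the type I receptor, also fell in the vestibule, by 1.14. Tgfb1, another ligand, had 7.28, 5.10 and 7.19 CPM in the cochlea and 15.1, 18.7 and 18.4 CPM in the vestibule, a log2 fold change of 1.30. Ltbp1, which holds latent ligand in the matrix, rose in the vestibule by 1.43 on the log2 scale, while Ltbp3, with the highest mean CPM of the list over the 6 libraries but below Tgfb2 in every cochlear library, had 0.09 with an edgeR adjusted p of 0.749. The call of Tgfbr2, named after its values were seen, at 0.39, was lost whichever library was left out.

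Of the 13 corepressor partners that the family brings to DNA, 1 was called in each direction by edgeR and 11 were not, beside 15.8% and 11.6% of all genes tested called in these directions, with a median log2 fold change of -0.01. Both calls were on subunits of the NCoR complex: Gps2 had a log2 fold change of 0.51 (edgeR adjusted p 0.0268) and Tbl1xr1 had -0.53 (0.0405), and they were called in 2 and 1 of the 6 fits that left out a library. Of 6 genes of the ubiquitin pathway that marks Ski and SnoN for breakdown, ligases together with the conjugating enzyme Cdc34 and the ligase activator Fzr1, 1 was called, Nedd4l at -0.53, in the full set and in 2 of these 6 fits, while Smurf2, with the highest mean CPM, had -0.35 with an edgeR adjusted p of 0.0679.

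Among the Eya genes and their homeobox partners, which work with Dach1 and Dach2, 8 of 10 were tested, and edgeR called 4 higher in the cochlea and 1 higher in the vestibule, with a median log2 fold change of -0.42. The shares of all genes tested called in these directions were 11.6% and 15.8%. Eya1, a phosphatase and coactivator needed for the inner ear, and the gene with the highest mean CPM of the list, had 256, 296 and 274 CPM in the cochlea and 154, 151 and 144 CPM in the vestibule, with an edgeR adjusted p of 0.000484. Eya2 had 0.65 and Six4 -0.64, and these calls were held in 3 and 2 of the 6 fits that left out a library. Without vestibular replicate 2 the list had 2 calls, both higher in the cochlea, and under library sizes alone 2 calls higher in the cochlea and 1 in the vestibule. Six3 and Six6 were below the filter.

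Of the TGF-beta and BMP response genes, 9 of 10 were tested, and edgeR called 4 higher in the cochlea and 2 higher in the vestibule, with a median log2 fold change of -0.42. For all genes tested these shares were 11.6% and 15.8%. Tgfbi, a matrix protein with the highest mean CPM of the list, had 633, 696 and 661 CPM in the cochlea and 226, 238 and 196 CPM in the vestibule, a log2 fold change of -1.71. Id2, an inhibitor of bHLH factors, had -1.53. Pmepa1, an inhibitor of TGF-beta signals, rose in the vestibule by 0.87. Ccn2, which codes for a matrix growth factor, had 36.2, 53.8 and 30.5 CPM in the cochlea and 70.2, 90.4 and 280 CPM in the vestibule, with vestibular replicate 3 apart from the others, and its log2 fold change of 1.78 (edgeR adjusted p 0.0354) was called in 2 of the 6 fits that left out a library.

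**Figure D5:**
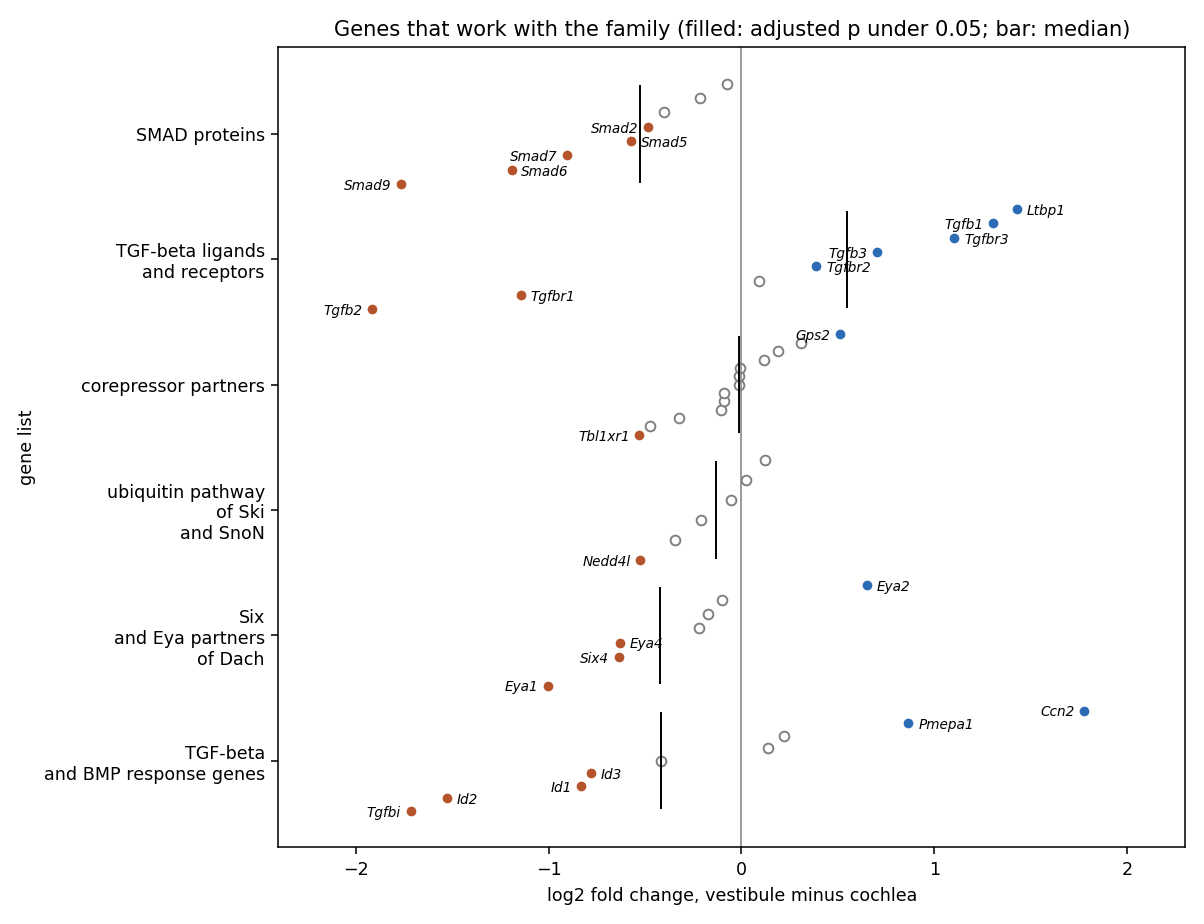
Log2 fold change, vestibule minus cochlea, of all tested genes but 1 in 6 lists of genes that work with the family, with filled points and names for genes at an edgeR adjusted p under 0.05 (blue higher in the vestibule, brown higher in the cochlea), open points for the others and a bar at the median of the whole list. The called SMAD genes all lie to the left of 0, the ligands and receptors lie on both sides, and 11 of the 13 corepressor partners are open points.

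Marker lists of several cell types also differed between the tissues, and the part of this in the values above was not tested. The calls of markers stand beside 15.8% of all genes tested called higher in the vestibule by edgeR and 11.6% in the cochlea. Markers of hair cells summed to 585 to 822 CPM in the cochlea and 1056 to 1366 CPM in the vestibule, with 6 of 10 called higher in the vestibule by edgeR and no marker at 0 counts. Otof alone had 53.5 to 102 against 307 to 530 CPM. Myo6 was higher in every cochlear library, at 361 to 458 against 326 to 360 CPM (edgeR adjusted p 0.0879). Atoh1 had a log2 fold change of -0.07. Markers of supporting cells summed to 9251 to 12527 and 3772 to 4638 CPM, with 7 of 10 called higher in the cochlea and 1 in the vestibule. Most of that cochlear sum was Tecta, at 7010 to 9689 CPM against 412 to 555, and without Tecta, a choice made after seeing the data, the sums were 2241 to 3010 CPM in the cochlea and 3216 to 4115 CPM in the vestibule. That order came from Otog, the 1 marker called higher in the vestibule, at 663 to 1184 against 1895 to 2345 CPM. Without both, the sums overlapped, at 1578 to 1826 and 1296 to 1826 CPM, and 6 of the 8 markers left were called higher in the cochlea. The largest of these 8 in every library was Sparcl1, which was not called, at 920 to 1076 CPM in the cochlea and 923 to 1429 CPM in the vestibule. Lists higher in every vestibular library were macrophages, 97.3 to 117 against 461 to 491 CPM with 7 of 7 called, melanocytes, 40.6 to 65.1 against 295 to 352 CPM with 6 of 6 called, endothelium, 177 to 228 against 383 to 542 CPM with 4 of 6 called and 1 called higher in the cochlea, Schwann cells, 753 to 929 against 1360 to 1715 CPM with 4 of 8 called, and mesenchyme, 5212 to 5905 against 8019 to 9263 CPM with 4 of 8 called and 2 called higher in the cochlea. Kdr, the largest endothelial marker in the vestibule, had 12.9 to 19.9 against 202 to 263 CPM. Emcn, the endothelial marker called higher in the cochlea, had 113 to 137 against 34.0 to 41.0 CPM. Col1a2, the largest mesenchymal marker in every library, had 1867 to 2501 against 4617 to 5251 CPM. How far these 2 list orders rest on Kdr and Col1a2 was not tested. The sums overlapped for neurons, at 294 to 665 and 170 to 386 CPM with 5 genes called higher in the cochlea, for cartilage, at 10552 to 17944 and 13037 to 16455 CPM with 3 called higher in the vestibule and 2 in the cochlea, for blood, at 261 to 660 and 449 to 575 CPM, and for skeletal muscle, at 4.58 to 298 and 9.39 to 28.3 CPM. Of the blood and muscle markers 0 were called by edgeR, DESeq2 or limma-voom, with 1 muscle and 0 blood markers at an unadjusted edgeR p under 0.05. Cochlear replicate 3 held the highest muscle sum, and the log2 fold change without it was 3.00 for Skor1, 1.51 for Dach2 and -0.52 for Dach1, while the log2 ratio of summed counts of Skor2 was 8.53, beside 8.19 with all libraries.

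Markers of Purkinje cells, the cells in which Skor2 is best known, were read beside it. Their sum was 335 to 374 CPM in the cochlea and 63.4 to 73.9 CPM in the vestibule, with 2 of 5 tested genes called higher in the cochlea and 0 in the vestibule by edgeR (1 by DESeq2, 0 by limma-voom and 1 at an unadjusted edgeR p under 0.05), beside 11.6% and 15.8% of all genes tested called by edgeR in these directions. Most of the cochlear sum was Calb1, which inner ear cells also express, at a mean of 285 CPM in the cochlea and 7.29 in the vestibule. Without Calb1, a choice made after seeing the data, the sums overlapped, at 53 to 75.9 CPM in the cochlea and 57.1 to 66.3 CPM in the vestibule. Rora, the other called marker, had means of 42.6 and 25.6 CPM and a log2 fold change of -0.86 with an edgeR adjusted p of 0.0186, and Car8 had 0.13 with 0.73. Lhx5 and Ptf1a were at 0 counts in all 6 libraries and Pcp2 had 0 to 3 counts. Lhx1 had 1, 0 and 0 counts in the cochlea against 9, 11 and 2, below the filter. Pcp4, at 5.72, 5.45 and 3.80 against 7.60, 9.19 and 9.81 CPM, and Foxp2, at 12.3, 13.8 and 13.4 against 20.7, 22.8 and 14.1 CPM, were above the cochlea in every vestibular library, with edgeR adjusted p of 0.0539 and 0.131. Lbx1, the partner of Skor1, was also counted in this list. It had 0, 2 and 1 counts in the cochlea against 11, 13 and 23, below the filter in both tissues.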

How the data were processed

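Per the labels and the study's methods, the authors made stranded mRNA libraries, aligned paired reads to GRCm38 with TopHat2 2.1.0 (versions per the submitters' processing notes, with SAMtools 0.1.18, HTSeq 0.5.4p5 and edgeR 3.4.2) and deposited whole counts per Ensembl gene; the strand setting of the counting is not given in the sources used here. They also deposited a log2 RPKM matrix of the 14722 genes past their filter. Summary lines (18.5% to 20.6% of each count file) stayed out of library sizes.

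The test across all genes above a floor of 1 CPM in 3 libraries was that of edgeR 4.0.16 under R 4.3.3 (TMM, quasi-likelihood, no block, Benjamini-Hochberg FDR 0.05), a procedure also tested on simulated data. The log2 CPM used for distances had a prior count of 0.5. Lists were described by counts and medians. Alternatives were other scalings, filters, a replicate block, DESeq2 1.42.0, limma-voom (limma 3.58.1) and leaving out each library. Figures used matplotlib 3.10.9. In each list the called genes were named, or the 4 with the largest change, and the one with the highest mean CPM; other named genes are said to be so. The members and lists were chosen with earlier results of these data known. The results of 2 genes under this rule are not reported here.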

Additional observations from a re-analysis of the deposited data

How the results depend on the processing

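Of 131 alternative values, 115 kept their direction and their side of the threshold or stayed near the main value. Scaling by library sizes alone moved the median log2 fold change over every gene tested to 0.126, beside 0.0048 with TMM, and the share of calls that were higher in the vestibule from 57.6% to 68.8% (2754 and 1249 genes); the calls of Skor1, Dach1 and Dach2 kept their direction and stayed under an FDR of 0.05. Skil changed sign under library sizes alone (0.11) and with at least 5 CPM (0.013), and ran from -0.097 to 0.10 when a library was left out, with an adjusted p far above 0.05 throughout; the cause was not tested.

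With 1 library left out, Dach1 ran from -0.69 to -0.52, and its call was lost without vestibular replicate 2. Calls higher in the vestibule ran from 1342 to 2694, beside 2325, and were 1342 without vestibular replicate 2 and 1522 without vestibular replicate 1. Calls higher in the cochlea ran from 925 to 1863, beside 1711, and were 925 without vestibular replicate 2 and 1034 without cochlear replicate 2. Calls in the lists of partner genes ran from 17 to 21, beside 26. These fits had fewer libraries.

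Same-numbered libraries did not deviate together (Pearson r of -0.175 at most), so the numbers were not used as pairs. A replicate block gave 1609 calls higher in the vestibule, 1009 higher in the cochlea and 17 among the partner genes, and changed no call among the members. Of the 5 genes nearest to Skor2, 0 were shared with a ranking by Pearson r and 3 with a prior count of 2. Depth limits the cochlear level of Skor2, which rests on 4 counts.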
